A study of Rattus norvegicus with 10 samples.

Results

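The genes described here are 9 members of the liver X receptor (LXR) and apolipoprotein system: Apoe, Apoc1, Apoc2, Apoc4, Apoa1, Pltp, Mylip, Lpcat3 and Smpdl3a. Every probe set whose only annotated gene symbol is 1 of these 9 was taken, which gave 11 probe sets of the 31042 tested, or 9 of the 14217 genes named singly, with 2 each for Apoe and Lpcat3 and 1 for each other gene. Macrophages given myelin (mye-macrophages) were compared with control macrophages on Affymetrix rat genome arrays, 5 arrays per group and 10 in all. Mye-macrophages are resident peritoneal macrophages of Hsdcpb:WU rats of 200 to 224 g that were kept for 3 days with 100 µg/ml of myelin from brain, and washed. Control macrophages came from the same kind of rats and were cultured alike with no myelin. Both groups then received IFNγ and IL-1β at 100 ng/ml for 9 hours, so that no array shows resting cells. The cells were enriched by adherence to plastic and not sorted. No source used here states if separate rats gave the 5 samples within each group. In the main fit, p-values measure the spread of the differences between samples of the same replicate number. For each probe set, limma draws this spread toward a value shared by all 31042, so intervals and p-values rest on more than the pairs alone.

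LXRs are nuclear receptors that bind oxidized cholesterol and, with their partner RXR, switch on genes that move lipid out of the cell. In macrophages that have taken up lipid, the best known of these genes encode the cholesterol transporters Abca1 and Abcg1. The genes described here act around that step: secreted apolipoproteins that accept the lipid, a transfer protein that reshapes the resulting particles, a ligase that removes the receptor for lipoprotein uptake, and enzymes of membrane lipids. Myelin is itself rich in cholesterol, which is the reason to ask how these genes stood in mye-macrophages.

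None of the members passed the test at an adjusted p under 0.05. The largest differences were those of the brighter Apoe probe set, at 1.30-fold in mye-macrophages over control macrophages, and the brighter Lpcat3 probe set, at 1.24-fold, and both were higher in 5 of 5 pairs of samples. Most of the Apoe difference came from replicate 4. The second Lpcat3 probe set was 1.15-fold higher, in 4 of 5 pairs. Apoa1, on a dim probe set, was 1.13-fold higher, also in 5 of 5 pairs. Pltp was 1.19-fold higher in 4 of 5 pairs, and Mylip had the same 1.19-fold mean difference in only 3 of 5 pairs. Apoc1, Apoc2 and a second Apoe probe set differed in no steady direction. Of the 11 probe sets, 7 lay in the more variable part of the array on which p-values were adjusted, and 0 of these 7 were called. Of all probe sets in that part 2.69% were called, 0.792% higher and 1.9% lower in mye-macrophages.

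Where each gene lies and what stands before its start gives the context of these measurements. In the rat assembly GRCr8, Apoc2, Apoc4, Apoc1 and Apoe are neighbouring protein-coding genes in that order on chromosome 1, and Apoa1 is on chromosome 8 beside Apoc3. Pltp is on chromosome 3, Lpcat3 on chromosome 4, Mylip on chromosome 17 and Smpdl3a on chromosome 20. LXR with RXR binds a pair of AGGTCA-like hexamers separated by NNNN. RefSeq promoters of GRCr8, running from 250 bases before to 50 after an annotated start, were available for 8 of the 9 genes in 11 entries, 3 of them for Apoe and 2 for Apoc1. The full repeat, a second AGGTCA that follows the first after any 4 bases, was found on either strand in 0 of these 11 entries and in 2 of all 33469 promoters (0.00598%). The variants in which AGTTCA takes the place of either hexamer were found in 0 of the 11 entries and in 0 of all promoters. A single AGGTCA was found in 2 of the 11 entries and in 16.2% of all promoters. The enhancers that drive the Apoe cluster in human and mouse macrophages lie far outside such windows, and the absence of a match says only that these letters are not in the window.

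The promoters that held a single AGGTCA were those of Apoc4 and Smpdl3a, and that of Lpcat3, the gene with the lowest p among the members, is shown beside them as one without it. Each is written 5′ to 3′ along the gene, and capitals mark AGGTCA or its reverse complement TGACCT. The hexamer begins at position -61 from the start of Apoc4. For Smpdl3a it begins at -142 on the gene's own strand and at -188 on the opposite strand. The windows are chr1:88467860-88468159 on the minus strand for Apoc4, chr20:37678754-37679053 on the plus strand for Smpdl3a and chr4:159154440-159154739 on the plus strand for Lpcat3.
Apoc4: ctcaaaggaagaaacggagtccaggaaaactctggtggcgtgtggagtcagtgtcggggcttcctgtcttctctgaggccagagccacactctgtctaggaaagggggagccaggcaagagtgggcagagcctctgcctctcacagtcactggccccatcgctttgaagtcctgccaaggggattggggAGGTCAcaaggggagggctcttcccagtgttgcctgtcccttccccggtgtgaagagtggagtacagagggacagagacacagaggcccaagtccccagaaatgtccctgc
Smpdl3a: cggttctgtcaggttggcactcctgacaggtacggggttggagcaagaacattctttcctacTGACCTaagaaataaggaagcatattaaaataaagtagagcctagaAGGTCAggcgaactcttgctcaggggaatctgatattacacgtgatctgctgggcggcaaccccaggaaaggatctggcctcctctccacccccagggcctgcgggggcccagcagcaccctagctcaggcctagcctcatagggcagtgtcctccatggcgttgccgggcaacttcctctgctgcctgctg
Lpcat3: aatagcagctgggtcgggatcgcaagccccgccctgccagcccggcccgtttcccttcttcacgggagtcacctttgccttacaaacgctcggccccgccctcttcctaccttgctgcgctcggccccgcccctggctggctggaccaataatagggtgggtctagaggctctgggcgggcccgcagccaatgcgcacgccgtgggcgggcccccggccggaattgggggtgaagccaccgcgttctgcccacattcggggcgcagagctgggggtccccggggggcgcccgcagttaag

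All values below are log2 signals after RMA, in the order of replicates 1 to 5, and each difference is mye-macrophages minus control macrophages in limma, with replicate numbers as blocks. Samples with the same number deviated together, and the number took a median of 68.2% of the sum of squares of the member probe sets, against 57.9% over all probe sets. The number took over 50% for 7 of the 11 members, against 60.1% of all probe sets. A level can be read between samples within a probe set, not between probe sets. The mean signal of 4 of the 11, namely Apoc1, Apoc2, Apoa1 and the second Apoe probe set, lay below the median of the mean signals of all probe sets. The groups overlapped for all 11, where 0.734% of all probe sets had groups that did not overlap. A culture is measured as a whole here, so fewer cells of a type and less RNA per cell cannot be told apart.

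**Figure D1:**
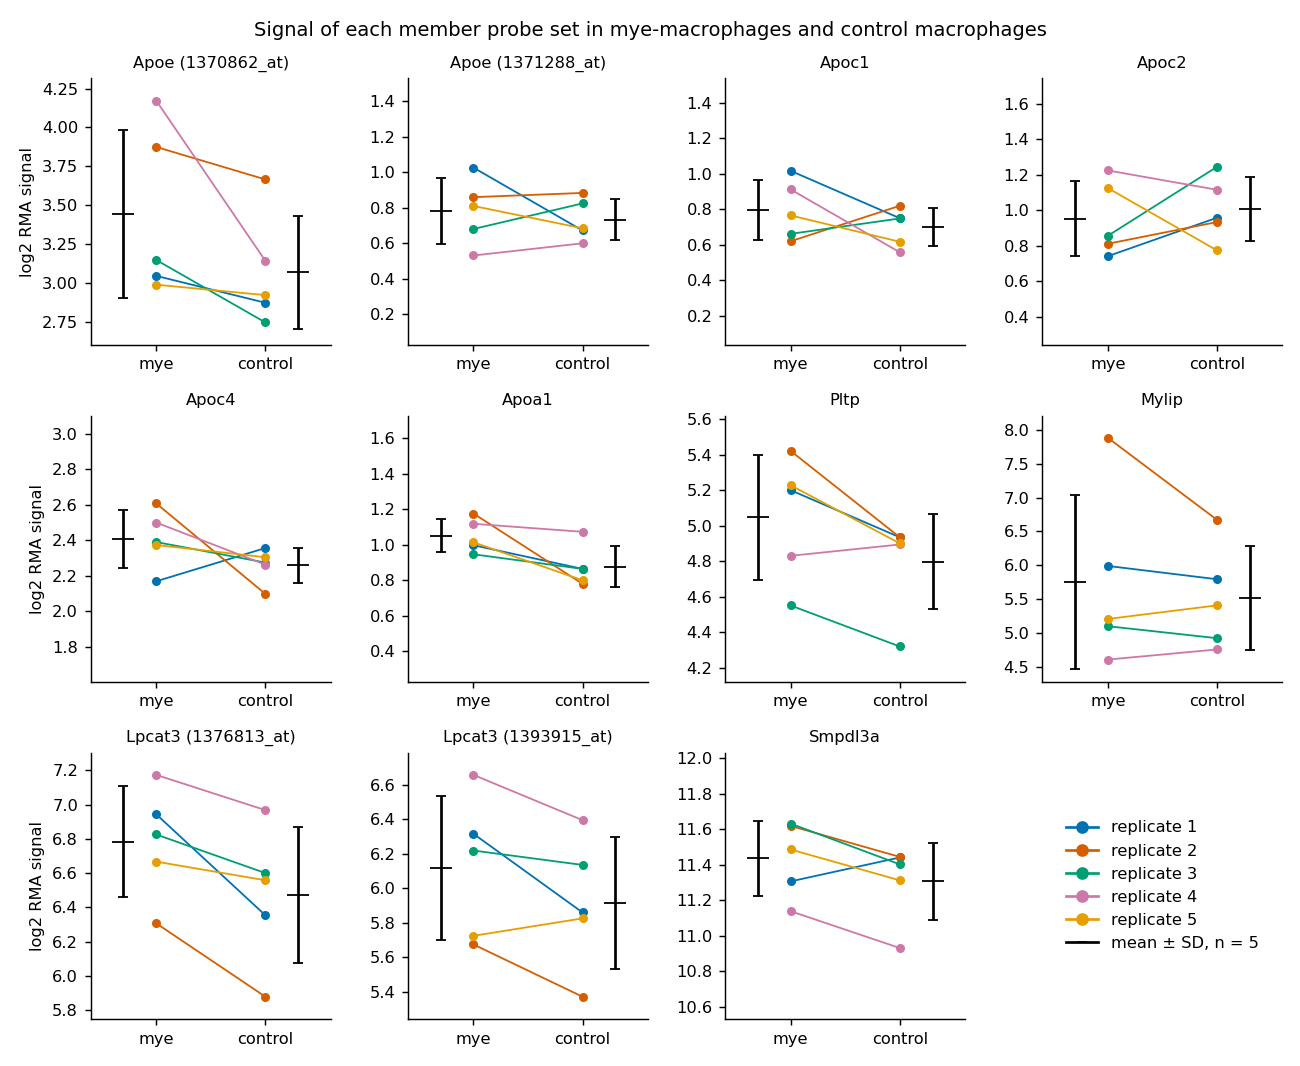
Log2 RMA signal of the 11 member probe sets (vertical axes, 1 panel each with its own range) in mye-macrophages and control macrophages, with lines joining samples of the same replicate number and black marks for mean and SD (n = 5). Lines of Lpcat3 and Mylip lie far apart by replicate number, from 4.60 to 7.88 for Mylip in mye-macrophages, and the groups overlap in each panel.

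Apoe, the apolipoprotein that macrophages secrete to carry cholesterol away and that receptors of the LDL receptor family recognize, was higher in mye-macrophages on its brighter probe set (1370862_at). Its signals were 3.04, 3.87, 3.15, 4.17 and 2.99 in mye-macrophages, against 2.87, 3.67, 2.75, 3.14 and 2.92 in control macrophages. Each mye-macrophage sample exceeded its partner, but replicates 1, 3 and 5 of the mye-macrophages lay within the range of the controls. The means were 3.45 ± 0.54 in mye-macrophages and 3.07 ± 0.36 in control macrophages (SD, n = 5 each). The difference was 0.38 (SE 0.13, 95% interval 0.09 to 0.66), and limma gave an adjusted p of 0.148 with the block. Most of it came from replicate 4, where the pair differed by 1.03, while the other pairs differed by 0.17, 0.21, 0.40 and 0.07. Without replicate 4 the difference was 0.21. A paired test per probe set, which draws on no other probe set, gave an adjusted p of 0.421.

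The second Apoe probe set (1371288_at) did not show this. It had 1.02, 0.86, 0.68, 0.53 and 0.81 in mye-macrophages, against 0.67, 0.88, 0.82, 0.60 and 0.68 in control macrophages. Mye-macrophages were higher in 2 of 5 pairs, and in replicate 4, where the brighter probe set differed most, they were lower by 0.07. The difference was 0.05 (SE 0.08, 95% interval -0.14 to 0.24), and the probe set did not enter the more variable part of the array. Both probe sets carry the symbol Apoe in the annotation, and the transcript ends they measure were not analysed here.

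The 3 genes next to Apoe encode the small apolipoproteins of the C group. Apoc1, known to hinder the uptake of lipoproteins, had 1.02, 0.62, 0.66, 0.91 and 0.76 in mye-macrophages, against 0.75, 0.82, 0.75, 0.56 and 0.62 in control macrophages. The difference was 0.10 (SE 0.09, 95% interval -0.11 to 0.30), with 3 of 5 pairs higher. It was 0.03 without replicate 4 and 0.17 without replicate 2. Apoc1 was outside the more variable part of the array, and the interval holds both directions.

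Apoc2, the cofactor that lipoprotein lipase needs, was the only member probe set with a lower mean in mye-macrophages. It had 0.74, 0.81, 0.86, 1.22 and 1.13 in mye-macrophages, against 0.96, 0.93, 1.25, 1.12 and 0.77 in control macrophages. Replicates 1, 2 and 3 were lower and replicates 4 and 5 higher than their partners. The difference was -0.05 (SE 0.10, 95% interval -0.29 to 0.18, adjusted p = 0.812 by limma). Without replicate 3 it was 0.03.

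Apoc4, a minor protein of triglyceride-rich lipoproteins, had 2.17, 2.61, 2.39, 2.50 and 2.37 in mye-macrophages, against 2.36, 2.10, 2.27, 2.26 and 2.30 in control macrophages. Replicates 2 to 5 were higher than their partners and replicate 1 was lower. The difference was 0.15 (SE 0.10, 95% interval -0.07 to 0.37) and was 0.06 without replicate 2, whose pair differed by 0.51. The replicate number took 7.70% of its sum of squares, the smallest share of the 11. Apoe, Apoc1, Apoc2 and Apoc4 are neighbours. Mye-macrophages stood highest above their partners in replicate 4 for the brighter Apoe probe set and Apoc1. They did so in replicate 1 for the dim Apoe probe set, in replicate 5 for Apoc2 and in replicate 2 for Apoc4.

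Apoa1 encodes the main protein of high-density lipoprotein, made mostly by liver and gut, and the acceptor of the lipid that Abca1 exports. Its dim probe set had 1.00, 1.18, 0.95, 1.12 and 1.01 in mye-macrophages, against 0.86, 0.78, 0.86, 1.07 and 0.80 in control macrophages. All 5 mye-macrophage samples exceeded their partners, and the groups overlapped only because replicate 4 of the controls stood at 1.07, above 3 of the mye-macrophages. The difference was 0.17 (SE 0.07, 95% interval 0.01 to 0.34, adjusted p = 0.227 by limma). The group took 45.9% of its sum of squares, the largest share among the members. Of the 5 measured hepatocyte markers only 1, Ttr, lay in the more variable part of the array and could be called. Beside Apoa1, 0 of the 5 were called, though all 5 had differences above 0. Their summed linear signal ran at 15.3 to 21.2 in mye-macrophages, against 16.7 to 18.0 in control macrophages, higher in 4 of 5 pairs. Ttr differed by 0.19, Ahsg by 0.14 in 5 of 5 pairs and Alb by 0.04, and the part of such cells in the Apoa1 difference was not tested.

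Pltp, the plasma protein that moves phospholipid between lipoproteins and enlarges high-density particles, is an LXR target. It had 5.20, 5.42, 4.55, 4.83 and 5.23 in mye-macrophages, against 4.93, 4.93, 4.32, 4.89 and 4.90 in control macrophages. Replicate 3 was the lowest of both groups, and replicate 4 was the only pair in which mye-macrophages were not higher. The means were 5.05 ± 0.35 in mye-macrophages and 4.80 ± 0.27 in control macrophages (SD, n = 5 each). The difference was 0.25 (SE 0.09, 95% interval 0.06 to 0.44, adjusted p = 0.150 by limma).

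Mylip, also called Idol, is the ubiquitin ligase that LXR uses to mark the LDL receptor for destruction. It had 5.99, 7.88, 5.10, 4.60 and 5.20 in mye-macrophages, against 5.79, 6.67, 4.92, 4.75 and 5.40 in control macrophages. Replicate 2 was the highest in both groups and replicate 4 the lowest in both. The replicate number took 91.2% of the sum of squares of Mylip and the group 1.67%. The difference was 0.25 (SE 0.18, 95% interval -0.15 to 0.64, adjusted p = 0.468 by limma) and rested on replicate 2, whose pair differed by 1.21. Without that replicate it was 0.01.

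Lpcat3 is the acyltransferase that places polyunsaturated chains into the phospholipids of membranes, and an LXR target. Its brighter probe set (1376813_at) had 6.94, 6.31, 6.83, 7.17 and 6.67 in mye-macrophages, against 6.35, 5.88, 6.60, 6.97 and 6.56 in control macrophages. Each mye-macrophage sample exceeded its partner, by 0.59, 0.43, 0.23, 0.21 and 0.11. The means were 6.78 ± 0.32 in mye-macrophages and 6.47 ± 0.40 in control macrophages (SD, n = 5 each). The difference was 0.31 (SE 0.08, 95% interval 0.12 to 0.50), with the lowest p of the members, 0.00434 unadjusted and 0.0853 adjusted by limma. With a variance prior that follows the mean signal and is robust to outlying probe sets, the adjusted p of limma was 0.0183 and Lpcat3 was the 1 member called, where 2.49% of the probe sets were then called higher. Over the other alternatives its adjusted p reached 0.996.

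The second Lpcat3 probe set (1393915_at) had 6.31, 5.67, 6.22, 6.66 and 5.72 in mye-macrophages, against 5.86, 5.37, 6.13, 6.39 and 5.82 in control macrophages. Replicate 4 was the highest and replicate 2 the lowest in mye-macrophages and in control macrophages on both Lpcat3 probe sets. Replicate 5 was the only pair in which it was lower in mye-macrophages. The difference was 0.20 (SE 0.09, 95% interval 0.0036 to 0.40, adjusted p = 0.240 by limma). Across the 10 arrays the 2 probe sets of Lpcat3 had the most similar profiles of the 55 pairs of member probe sets. Their root mean square distance was 0.37 after standardizing each profile, where unrelated profiles stand at 1.41. The next pair, Apoc4 and Apoa1, stood at 0.80.

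Smpdl3a, a phosphodiesterase related to acid sphingomyelinase and an LXR target in human macrophages, had 11.31, 11.62, 11.63, 11.14 and 11.49 in mye-macrophages, against 11.44, 11.45, 11.40, 10.93 and 11.31 in control macrophages. Replicates 2 to 5 were higher than their partners by 0.17 to 0.23, and replicate 1 was lower by 0.13. The difference was 0.13 (SE 0.08, 95% interval -0.04 to 0.30), and 0.20 without replicate 1. The probe set varied too little to enter the part of the array on which p-values were adjusted.

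**Figure D2:**
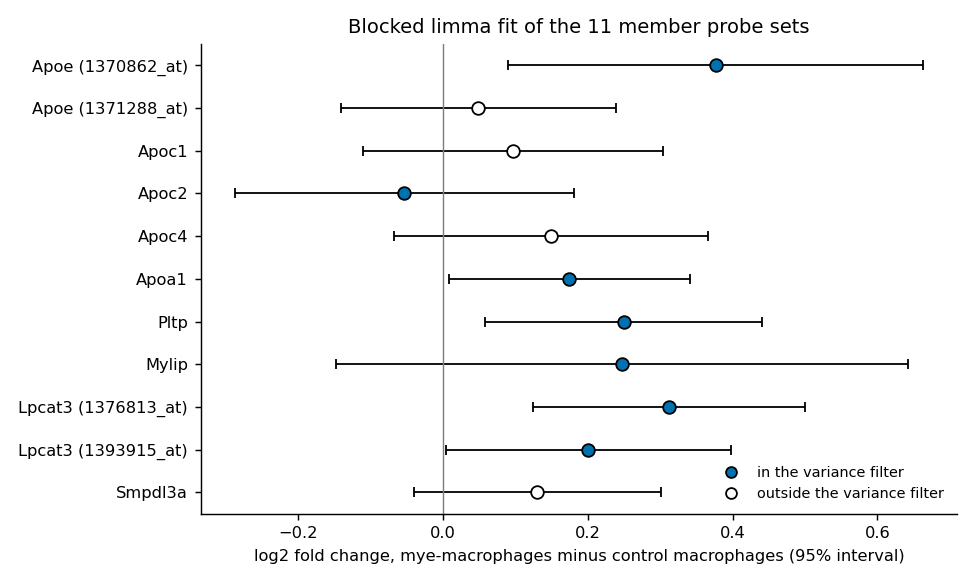
Log2 fold change of mye-macrophages over control macrophages (horizontal axis) for the 11 member probe sets from the blocked limma fit, with 95% intervals. Filled points are the 7 probe sets in the more variable part of the array, and 5 of them have intervals above 0 before adjustment.

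Set side by side, 10 of the 11 differences were above 0, where 51.6% of all probe sets were, and the median was 0.17 for the members and 0.0044 for all probe sets. Mye-macrophages were higher in at least 4 of 5 pairs for 7 of the 11 (23.3% of all probe sets) and in 5 of 5 pairs for 3 of the 11 (6.16%). At an unadjusted p under 0.05, 5 of the 11 were higher, where 5.51% of all probe sets were, and 0 were lower, where 6.62% were. These 5 are the brighter Apoe probe set, Apoa1, Pltp and both probe sets of Lpcat3, so they stand for 4 genes. The 9 genes were chosen with results of these arrays known, and these counts describe them only.

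**Figure D3:**
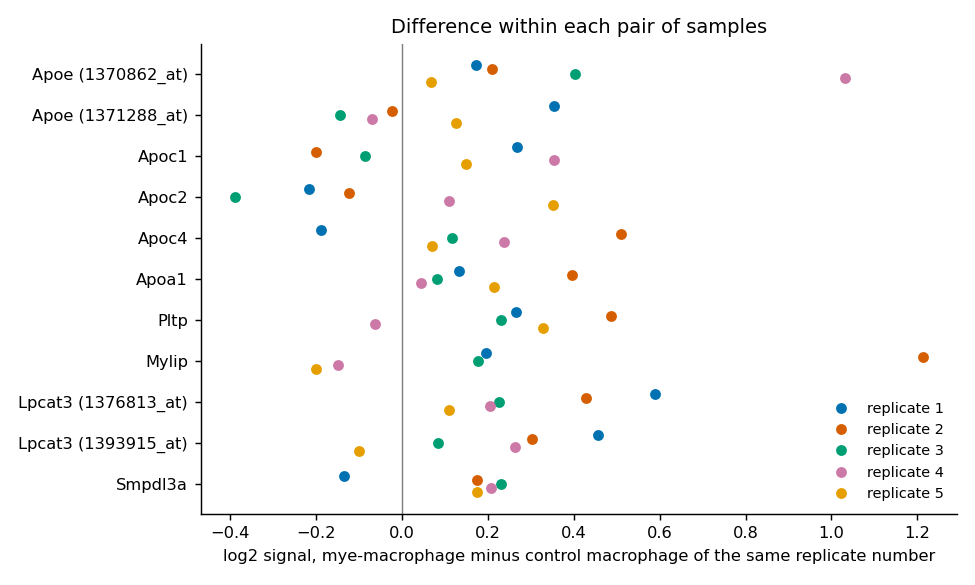
Difference in log2 signal between the mye-macrophage and the control macrophage sample of each replicate number (horizontal axis) for each member probe set, coloured by replicate. Replicate 4 stands out for the brighter Apoe probe set at 1.03 and replicate 2 for Mylip at 1.21.

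The pairs that carried the differences were not the same from gene to gene. Replicate 2 had the largest difference toward mye-macrophages of the 5 pairs for Apoc4, Apoa1, Pltp and Mylip. Replicate 1 had it for both Lpcat3 probe sets and for the dim Apoe probe set, and replicate 4 for the brighter Apoe probe set and Apoc1. Replicate 3 had it for Smpdl3a alone, and replicate 5 for Apoc2 alone.

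**Figure D4:**
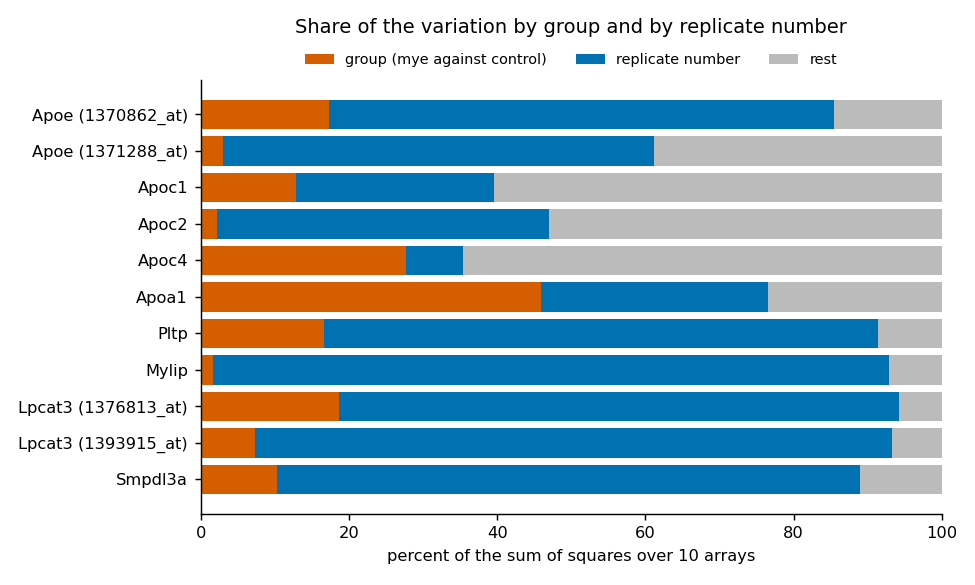
Share of the sum of squares over the 10 arrays (horizontal axis, percent) taken by the group, by the replicate number and by the rest for each member probe set. The replicate number takes 91.2% for Mylip and 7.70% for Apoc4, and the group takes 45.9% for Apoa1.

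Abca1, Abcg1 and Scd2, LXR targets outside the members, were higher in mye-macrophages. Of 11 measured targets outside the members, 3 rose in mye-macrophages, 0 fell and 8 were not called, with a median difference of 0.11. Of these 11, 10 lay in the more variable part of the array and could be called. Abca1, the transporter that loads lipid onto apolipoproteins, averaged 8.40 in mye-macrophages and 7.68 in control macrophages, a difference of 0.72 (SE 0.16, adjusted p = 0.0473 by limma). A further 2 of its 4 probe sets were called and the last, at 0.16, was not. Abcg1, which passes cholesterol to mature particles, rose by 1.12 (SE 0.15, adjusted p = 0.0112 by limma), and its other probe sets, at 0.59 and 0.24, were not called. Scd2, as the annotation names this fatty acid desaturase, rose by 1.95 (SE 0.17, adjusted p = 0.0019 by limma) on 1 of its 4 probe sets. The count of 3 was 1 without replicate 1, 1 with the beta-actin gap described below as a covariate and 0 without the block. Acaca, of fatty acid synthesis, was higher in 5 of 5 pairs by 0.25 (adjusted p = 0.105), and Lpl, the lipase that Apoc2 serves, differed by -0.09. Whether the members changed less than these targets was not tested.

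**Figure D5:**
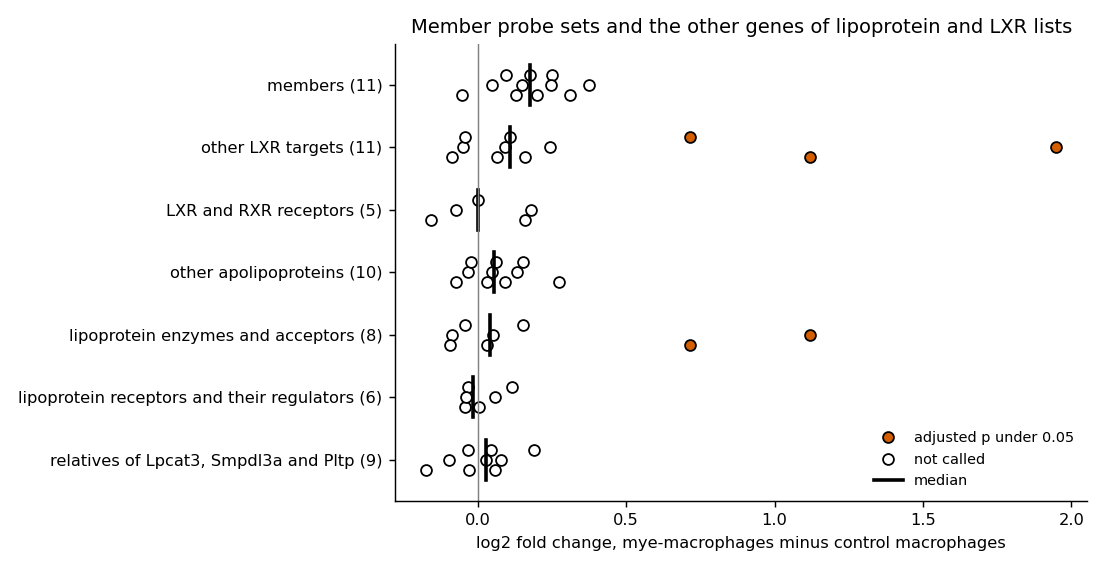
Log2 fold change of mye-macrophages over control macrophages (horizontal axis) for the 11 member probe sets and for the measured genes of 6 lists, 1 probe set per gene, with the number of points in brackets and black bars for medians. Filled points are called at an adjusted p under 0.05, namely Abca1, Abcg1 and Scd2, and the first 2 also belong to the list of lipoprotein enzymes and acceptors.

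Outside the transporters Abca1 and Abcg1, no gene of the receptors and partners of the members passed the test. Only genes in the more variable part of the array could be called. These were 3 of the 5 LXR and RXR genes, 5 of the 10 other apolipoproteins and 6 of the 8 lipoprotein enzymes and acceptors. They were also 3 of the 6 lipoprotein receptors and regulators and 4 of the 9 relatives of Lpcat3, Smpdl3a and Pltp. Of the 5 genes of LXR and RXR, 0 were called, and Nr1h3, which encodes LXRα, differed by 0.16 while Nr1h2, which encodes LXRβ, differed by -0.07. The RXR genes Rxrg and Rxrb differed by 0.18 and -0.16. Of 10 other measured apolipoproteins 0 were called, with a median of 0.05, and the largest difference was that of Apob, the scaffold of low-density particles, at 0.28 (adjusted p = 0.173). Among 8 lipoprotein enzymes and acceptors only Abca1 and Abcg1 rose, and the median was 0.04. Of 6 measured lipoprotein receptors and regulators 0 were called, with a median of -0.01. Lrp8, an Apoe receptor, differed by 0.11 and Lrp1, a scavenging receptor for Apoe, by -0.03. Of 9 relatives of Lpcat3, Smpdl3a and Pltp 0 were called, with a median of 0.03. Lpcat1 differed by 0.19, Mboat7, an acyltransferase for phosphatidylinositol, by -0.17 and Smpdl3b by -0.10, and both of these were lower in 5 of 5 pairs and outside the more variable part of the array.

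Profiles like that of the brighter Apoe probe set were sought over the 10 arrays by the distance between standardized values. The nearest named genes were Nbas at 0.37, Champ1 and Anxa3 at 0.38 each, Fut2 at 0.39 and Dst at 0.40. Champ1 and Fut2 lay outside the more variable part of the array and could not be called. None of the 5 nearest genes was called, and their differences lay between 0.03 and 0.25. Their likeness to Apoe is over pairs as well as groups, and it is a description of 10 arrays.

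Some markers of other cells differed between the groups. Among the macrophage markers, Cd68 averaged 11.36 in mye-macrophages and 11.22 in control macrophages. The probe set of Cd163 was dim, at 1.18 in mye-macrophages and 0.95 in control macrophages. Of the 9 markers 1 was called, Mrc1, higher by 0.71 and not called without replicate 1, 2, 4 or 5. Of 9 measured oligodendrocyte and myelin markers 2 were called, both higher: Mobp by 3.60 and Bcas1 by 1.76. Mbp, the basic protein of myelin, differed by -0.20 on its brightest probe set, which stands for it in this count, but another Mbp probe set was higher by 3.37 (SE 0.22, adjusted p = 0.000877 by limma). With the most variable probe set of each gene, 3 of the 9 were called. Summed over the brightest probe set of each gene, their linear signal ran at 216 to 281 in mye-macrophages, against 172 to 213 in control macrophages, and Olig2 averaged 1.00 in each group. Of 7 astrocyte markers 1 was called, Slc1a3, higher by 0.91 and not called without replicate 1, 2, 4 or 5. Aldoc was higher by 0.47 in 5 of 5 pairs (adjusted p = 0.113 by limma), and Gja1 differed by -0.62 (adjusted p = 0.141). The astrocyte markers had sums of 32.7 to 87.9 in mye-macrophages and 30.8 to 68.8 in control macrophages. Astrocytes are the main source of Apoe in brain. Gfap averaged 1.53 in mye-macrophages and 1.51 in control macrophages, and Aqp4 0.77 in mye-macrophages and 0.85 in control macrophages. The sums of the oligodendrocyte and of the astrocyte markers were each higher in 5 of 5 pairs. Of the 7 astrocyte markers only 4 had differences above 0, with a median of 0.02. The authors report, without showing data, that the added myelin held negligible RNA. The part of such cells or of myelin in the Apoe difference was not tested. Of the measured markers of mesothelial cells and fibroblasts (6), T, B and NK cells (4) and granulocytes and mast cells (4), 0 were called. By their brightest probe sets, not all markers lay in the more variable part of the array, where alone a call was possible. There lay 6 of the 9 macrophage and 4 of the 9 oligodendrocyte and myelin markers. So did 4 of the 7 astrocyte and 3 of the 6 mesothelial and fibroblast markers.

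The gap between 3′ and 5′ probe sets of beta-actin, which widens as RNA breaks down, averaged 3.30 ± 0.32 in mye-macrophages, against 3.02 ± 0.30 in control macrophages (SD, n = 5 each), wider in 4 of 5 pairs. The difference of 0.27 had p = 0.190 in a two-sided exact permutation test that leaves out the pairing, and that of Gapdh was 0.02. An exact test that flips the signs of the pair differences gave p = 0.1875 for beta-actin, where its smallest possible p is 0.0625. Once this gap entered the fit beside the block, the difference was 0.52 for the brighter Apoe probe set, 0.21 and 0.12 for the 2 Lpcat3 probe sets, 0.19 for Pltp, 0.13 for Mylip, 0.13 for Apoa1 and 0.22 for Smpdl3a. No member was called in this fit. Its adjusted p by limma was 0.253 for the brighter Apoe probe set, against 0.148 without the gap, and 0.439 for the brighter Lpcat3 probe set. The direction turned for the dim Apoe probe set, at -0.07, and for no other member.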

How the data were processed

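RNA of 10 cultures, 5 of mye-macrophages and 5 of control macrophages, was hybridized to 1 Affymetrix array each. The authors deposited log2 values made by RMA with the affy package, which corrects the background, equalizes the arrays and summarizes each probe set; its version is not given in the sources used here. Array medians were 2.30 to 2.34, low for RMA, and the reason is not stated. The number of arrays limits the precision.

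The 57 control probe sets were left out and limma 3.58.1 (R 4.3.3) was fitted to all 31042 others with the replicate number as a block. P-values were adjusted by Benjamini-Hochberg over the 50% with the larger interquartile range, 15521 probe sets, with a threshold of 0.05. The methods name an unpaired test, which was an alternative. Deviations of same-numbered samples correlated at 0.404 to 0.791 and at most at 0.279 across numbers, over the threshold of 0.1 for pairing; what the numbers stand for is not stated. No pair of arrays held the same values over all probe sets. The script was tested on simulated data. Tables were made in Python 3.11 with pandas 2.3.3.

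The array annotation gave 1 symbol to 20826 probe sets, several to 436 and none to 9780; none with several was named. The rule allowed naming all members, in each pathway list the called genes, the 3 with the largest change and the 2 brightest, and the 5 profiles nearest to Apoe; not every gene it allowed is named. Cell type markers lie outside it, and those given were chosen after their values were seen. In lists the brightest probe set stood for a gene. The members and lists were chosen with earlier results of these data known. Alternatives covered the block, test, filter, scaling, array weights, variance prior, RNA quality and each pair left out.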

Additional observations from a re-analysis of the deposited data

Results flagged for a closer look

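Among the 22 groups of 5 member values, 3 held a sample far from the others by Dixon's test, where chance gives about 1 in 20. All 3 were control macrophages. Replicate 4 was the highest control for Apoa1 at 1.07, with the next at 0.86, so that it lay above 3 of the 5 mye-macrophages, and the Apoa1 difference was 0.21 without that pair. Replicate 4 was also the lowest control for Smpdl3a, at 10.9 with the next at 11.3. Replicate 3 was the lowest control for Pltp, at 4.32 with the next at 4.89, and its mye-macrophage partner was the lowest of its group as well, at 4.55.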

How the results depend on the processing

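Over 14 alternatives, 149 of the 154 member values kept their direction and side of the threshold. Much of this was fixed beforehand. Changing only the block, the test, the filter or the variance prior left each difference as it was, so its direction could not turn. Where no probe set was called at all, or a member lay outside the filter, its call could not change either. Lpcat3 (1376813_at) passed with the trended and robust prior, at an unchanged 0.31, which made 1 member called, higher. The dim Apoe probe set turned to -0.071 with the beta-actin gap as covariate and, with pairs left out, ran from -0.028 (without replicate 1) to 0.097, and Apoc2 turned to 0.0017 with array weights and ran from -0.15 to 0.030 (without replicate 3). The causes were not tested.

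Over all filtered probe sets 418 were called, 123 higher and 295 lower. Without the replicate block, under the methods' t-test and under a paired test per probe set, 0 were called after adjustment (0 higher and 0 lower), while 1032 had an unadjusted p under 0.05 by limma without the block, 778 by the methods' t-test and 2314 by the paired test. Without the filter the counts were 128, 39 and 89, because more probe sets were tested. With the trended and robust prior they were 1041, 387 and 654, and with the beta-actin gap as covariate 16, 6 and 10. Leaving out 1 pair gave 31 to 672, with 11 to 141 higher and 20 to 531 lower: 31, 42, 72 and 38 without replicates 1, 2, 4 and 5, and 672 without replicate 3. No member was called with the block and no filtered probe set without it, so this setting could not show whether a member's call is steady. Without the block the adjusted p of limma rose from 0.0853 to 0.892 for Lpcat3 (1376813_at). For the brighter Apoe probe set it rose from 0.148 to 0.898.

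The number of arrays limits the precision, and the intervals of 6 member probe sets hold 0. RMA compresses the differences of dim probe sets such as those of Apoc1, Apoc2 and Apoa1, and by how much was not tested. Calls rest on the pairing by replicate number, whose meaning is not stated.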
